A study of Mus musculus with 12 samples.

Results

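Levels of 10 imprinted genes linked to growth or fat mass were followed through mouse adipose tissue: Peg3, Mest, Nnat, Plagl1, Dlk1, Igf2, H19, Meg3, Sgce and Cdkn1c. They were taken by symbol from the gene lists of the count matrices, and all 10 of them were found among the 32285 genes measured. They were selected on earlier results of these libraries, namely the level of Peg3 by depot and of Mest and Nnat in cold, so those values are given here as a description. The data are UMI counts (counts of unique molecular tags) from single nuclei of 12 libraries, and each library is its own group. With 1 library per group no difference between groups could be tested, and every interval below is a 95% interval for counting error only.

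The nuclei came from male C57BL/6J mice on normal chow, with no genetic change named in the labels, and were stained with the DNA dye 7-AAD and sorted before droplet capture. The depots were mPRAT and lPRAT (the medial and lateral perirenal fat), iBAT (interscapular brown fat) and iWAT (inguinal white fat). The libraries at room temperature (22 °C) were 3 each of mPRAT and iBAT (ages 1, 2 and 6 months), 2 of lPRAT (ages 2 and 6 months) and 1 of iWAT (age 6 months). Cold-exposed mice were kept at 4 °C for 3 days and gave libraries of mPRAT, iBAT and iWAT at 6 months. The ages are those of the sample titles: the age field gives 4, 8 and 16 weeks for the same samples, so animals titled 6 months are 16 weeks old by that field. How many animals were pooled in a library is not stated in the labels.

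Imprinted genes are transcribed mainly from 1 parental allele, and many act on growth before and after birth. Peg3, Mest, Nnat, Plagl1, Dlk1, Igf2 and Sgce are usually expressed from the paternal allele, and H19, Meg3 and Cdkn1c from the maternal allele. In fat, Mest is known as a gene that varies with the expansion of fat mass, and Dlk1 as an inhibitor of adipocyte differentiation that is turned off as preadipocytes mature.

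Gene locations are those of the GENCODE M21 annotation of GRCm38 (mm10), and each interval covers the exons and introns of the gene. Peg3 (ENSMUSG00000002265), a zinc finger protein, lies at chr7:6703892-6730431 on the minus strand. Mest (ENSMUSG00000051855), an α/β-hydrolase fold protein, lies at chr6:30723547-30748465 on the plus strand, where Copg2 and the antisense gene Gm44296 overlap it on the other strand. Nnat (ENSMUSG00000067786), neuronatin, a small proteolipid of the endoplasmic reticulum membrane, lies at chr2:157560078-157562522 on the plus strand inside Blcap on the minus strand. Plagl1 (ENSMUSG00000019817), a zinc finger transcription factor, lies at chr10:13060504-13131694 on the plus strand.

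Promoter sequence was available from the RefSeq table of GRCm38.p6 for 7 of the 10 genes, in 13 windows. The 250 bases before a start site are shown for the 4 genes on which the adipocyte results turn, because imprinted genes are marked by methylation of CG pairs near such starts. Each runs 5′ to 3′ on the strand of its gene, with CG pairs in capitals. The windows are chr7:6730420-6730669 (minus strand) for Peg3, chr6:30737800-30738049 (plus) for Mest, chr2:157559828-157560077 (plus) for Nnat and chr10:13090582-13090831 (plus) for Plagl1.
Peg3: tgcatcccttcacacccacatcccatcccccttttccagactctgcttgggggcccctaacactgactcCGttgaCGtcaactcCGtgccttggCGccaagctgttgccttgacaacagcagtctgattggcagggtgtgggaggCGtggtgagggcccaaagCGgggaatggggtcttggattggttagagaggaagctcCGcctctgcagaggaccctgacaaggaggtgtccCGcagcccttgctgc
Mest: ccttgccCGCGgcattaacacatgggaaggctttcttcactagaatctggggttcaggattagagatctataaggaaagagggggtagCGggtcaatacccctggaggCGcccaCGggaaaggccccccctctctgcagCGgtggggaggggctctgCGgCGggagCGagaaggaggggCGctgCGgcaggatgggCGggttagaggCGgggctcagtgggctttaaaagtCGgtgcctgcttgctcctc
Nnat: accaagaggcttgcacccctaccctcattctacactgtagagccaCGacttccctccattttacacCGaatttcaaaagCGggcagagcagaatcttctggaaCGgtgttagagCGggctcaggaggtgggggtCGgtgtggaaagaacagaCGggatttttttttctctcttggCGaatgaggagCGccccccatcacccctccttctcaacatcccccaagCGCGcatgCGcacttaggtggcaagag
Plagl1: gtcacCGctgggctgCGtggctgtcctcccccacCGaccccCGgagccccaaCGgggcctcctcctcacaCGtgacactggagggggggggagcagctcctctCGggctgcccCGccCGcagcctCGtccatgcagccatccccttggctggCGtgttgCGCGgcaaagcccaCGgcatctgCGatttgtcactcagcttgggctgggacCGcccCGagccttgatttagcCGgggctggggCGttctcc
These 250 bases held 8 CG pairs at Peg3, 14 at Mest, 12 at Nnat and 19 at Plagl1, beside a median of 6 over all 32817 windows of the table. Of all windows, 57.0% held fewer than Peg3, 70.7% fewer than Mest, 66.5% fewer than Nnat and 80.3% fewer than Plagl1. Another Mest start, not shown (chr6:30733256-30733505), held 7 CG pairs, and 53.7% of all windows held fewer. In the full windows of 300 bases, searched on both strands, the cyclic AMP element TGACGTCA occurred at Peg3 and Meg3 and in 1.79% of all windows. The GC box GGGCGG occurred at Mest, Plagl1 and Igf2 and in 35.6% of all windows, and CCAAT at Peg3, Meg3 and Igf2 and in 37.4%. The YY1-type motif GCCATNTT occurred in 6.04% of all windows and in none of the 13 windows of these genes. Methylation was not measured, and these matches are descriptions of the letters only.

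Total depth ran from 5461133 to 87035783 UMIs per library, and 3190 to 17530 nuclei per library were kept, 96608 in all. The cold mPRAT library stood apart, since 66.0% of its barcodes were over the mitochondrial limit of 10% and were left out, against at most 22.1% in any other library. No 2 libraries shared more than 76 barcodes. Graph clustering gave 43 clusters, made without the 10 genes, the other listed genes and the adipocyte state markers. Clusters were named from marker genes, with "-like" to mark that the names were rebuilt here. Adipocyte-like nuclei numbered 1994 to 15701 per library, with a median of 888 to 6535 UMIs per nucleus, and all 6 adipocyte markers (Adipoq, Plin1, Plin4, Lipe, Cidec and Tshr) were detected in them in every library. Levels are given in CPM, the UMIs of a gene per 1000000 UMIs of all the nuclei of a class in a library. Free RNA in droplets gives UMIs to nuclei that do not express a gene, so the level in macrophage-like nuclei of the same library is given beside adipocyte levels as a measure of that background.

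Most nuclei were adipocyte-like, and over all libraries together that class held most UMIs of 5 of the genes: 93.0% of the Peg3 UMIs, 94.1% of Mest, 94.7% of Nnat, 83.5% of Plagl1 and 76.9% of Sgce. In mPRAT at 1, 2 and 6 months and in cold it held 48.8%, 35.1%, 78.8% and 39.8% of the Peg3 UMIs. The values in the same order were 35.5%, 26.9%, 64.7% and 38.9% for Plagl1 and 91.7%, 96.6%, 93.5% and 93.7% for Nnat. Meg3 was found mainly elsewhere: 45.5% of its UMIs lay in ASPC-like nuclei (adipose stem and progenitor cells), 17.0% in adrenal cortex-like, 14.2% in mural-like and 13.5% in mesothelial-like nuclei, and 6.31% in adipocyte-like nuclei. Dlk1 was led by mural-like nuclei (52.2% of 161 UMIs), and Igf2 (47.3% of 112 UMIs) and Cdkn1c (57.1% of 497 UMIs) by endothelial-like nuclei. H19 had 26 UMIs in all libraries together, of which 13 lay in skeletal muscle-like nuclei. These shares depend on how many nuclei of a class were captured, and the order of levels per class was another one. The median Sgce level over the 12 libraries was 166 CPM in ASPC-like and 47.7 CPM in adipocyte-like nuclei, and that of Plagl1 was 27.7 and 7.01 CPM. Peg3 (57.8 and 179 CPM) and Nnat (61.6 and 311 CPM) had the higher median in adipocyte-like nuclei. For Mest the order depended on the depot: it was 5.24 CPM in ASPC-like and 117 CPM in adipocyte-like nuclei of lPRAT at 6 months, but 13.9 and 0.248 CPM in iBAT at 6 months. Levels per class are used below.

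**Figure D1:**
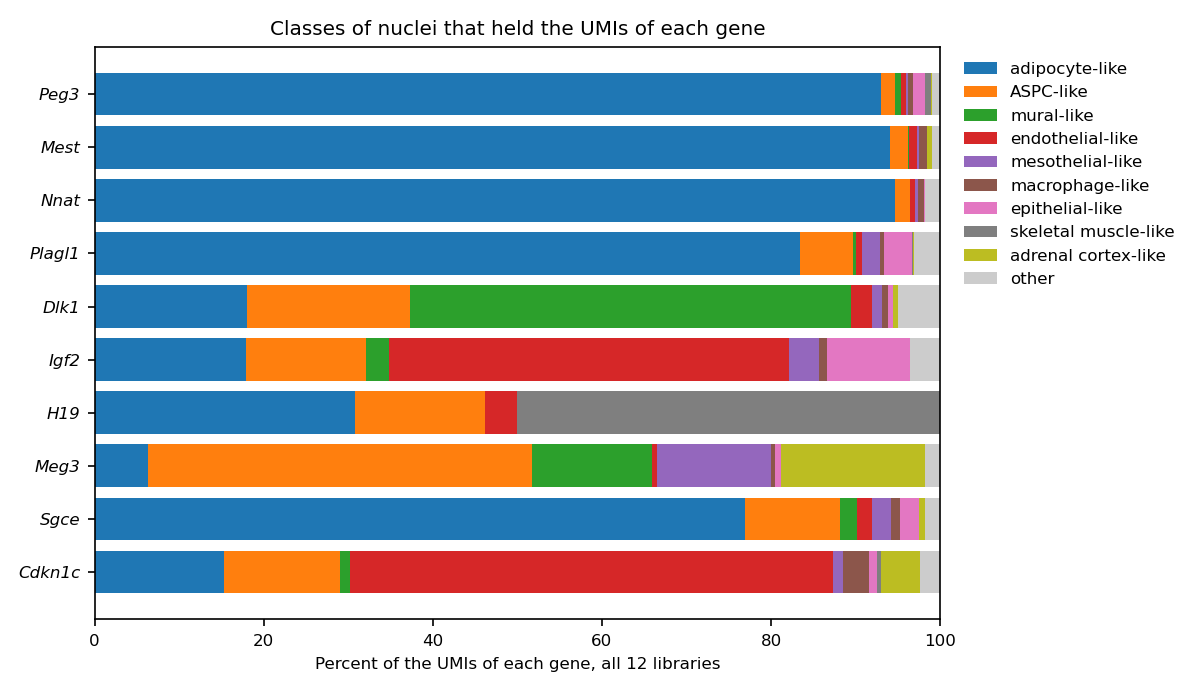
Share of the UMIs of each gene (x axis, percent of the gene's UMIs over all 12 libraries) by class of nuclei (colours). Adipocyte-like nuclei hold 93.0% of Peg3, 94.1% of Mest and 94.7% of Nnat UMIs but 6.31% of Meg3 UMIs; the H19 bar rests on 26 UMIs.

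Peg3 was low in adipocytes of mPRAT at every age and high in the other depots. In mPRAT adipocyte-like nuclei it stood at 66.7 CPM at 1 month, 47.6 at 2 months, 42.0 at 6 months and 26.6 in cold. The 2-month interval (42.9 to 52.7) and the 6-month interval (39.4 to 44.6) overlapped. In iBAT it was 307 CPM at 1 month, 390.0 at 2 months, 153 at 6 months and 204 in cold. The highest levels were in lPRAT at 6 months (879 CPM) and iWAT at room temperature (765 CPM), while lPRAT at 2 months (179 CPM) and cold iWAT (178 CPM) had overlapping intervals. Every mPRAT library lay below every library of the other depots. Peg3 was also above the macrophage-like level in 12 of 12 libraries, and at least 2-fold above it in 10; in the cold mPRAT library that level was 16.7 CPM, close to the 26.6 CPM of adipocytes.

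Against iBAT of the same age and temperature, Peg3 in mPRAT adipocyte-like nuclei was 4.59-fold lower at 1 month (interval 4.11 to 5.14), 8.19-fold lower at 2 months (7.38 to 9.11), 3.65-fold lower at 6 months (3.42 to 3.91) and 7.69-fold lower in cold (6.82 to 8.71). At 6 months it was 20.9-fold lower than in lPRAT (19.6 to 22.3) and 18.2-fold lower than in iWAT (17.1 to 19.4). The difference was present inside clusters: of the 7 adipocyte clusters with at least 50 nuclei in both 6-month libraries, Peg3 was over 2-fold lower in mPRAT than in iBAT in 7. In cluster 6, the cluster of highest Peg3 in mPRAT, the 2 levels were 149.97 and 628 CPM, and in cluster 0 they were 12.995 and 151 CPM. Within iBAT at 6 months the level differed between those clusters too, from 151 CPM in cluster 0 to 411 in cluster 5 and 628 in cluster 6.

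**Figure D2:**
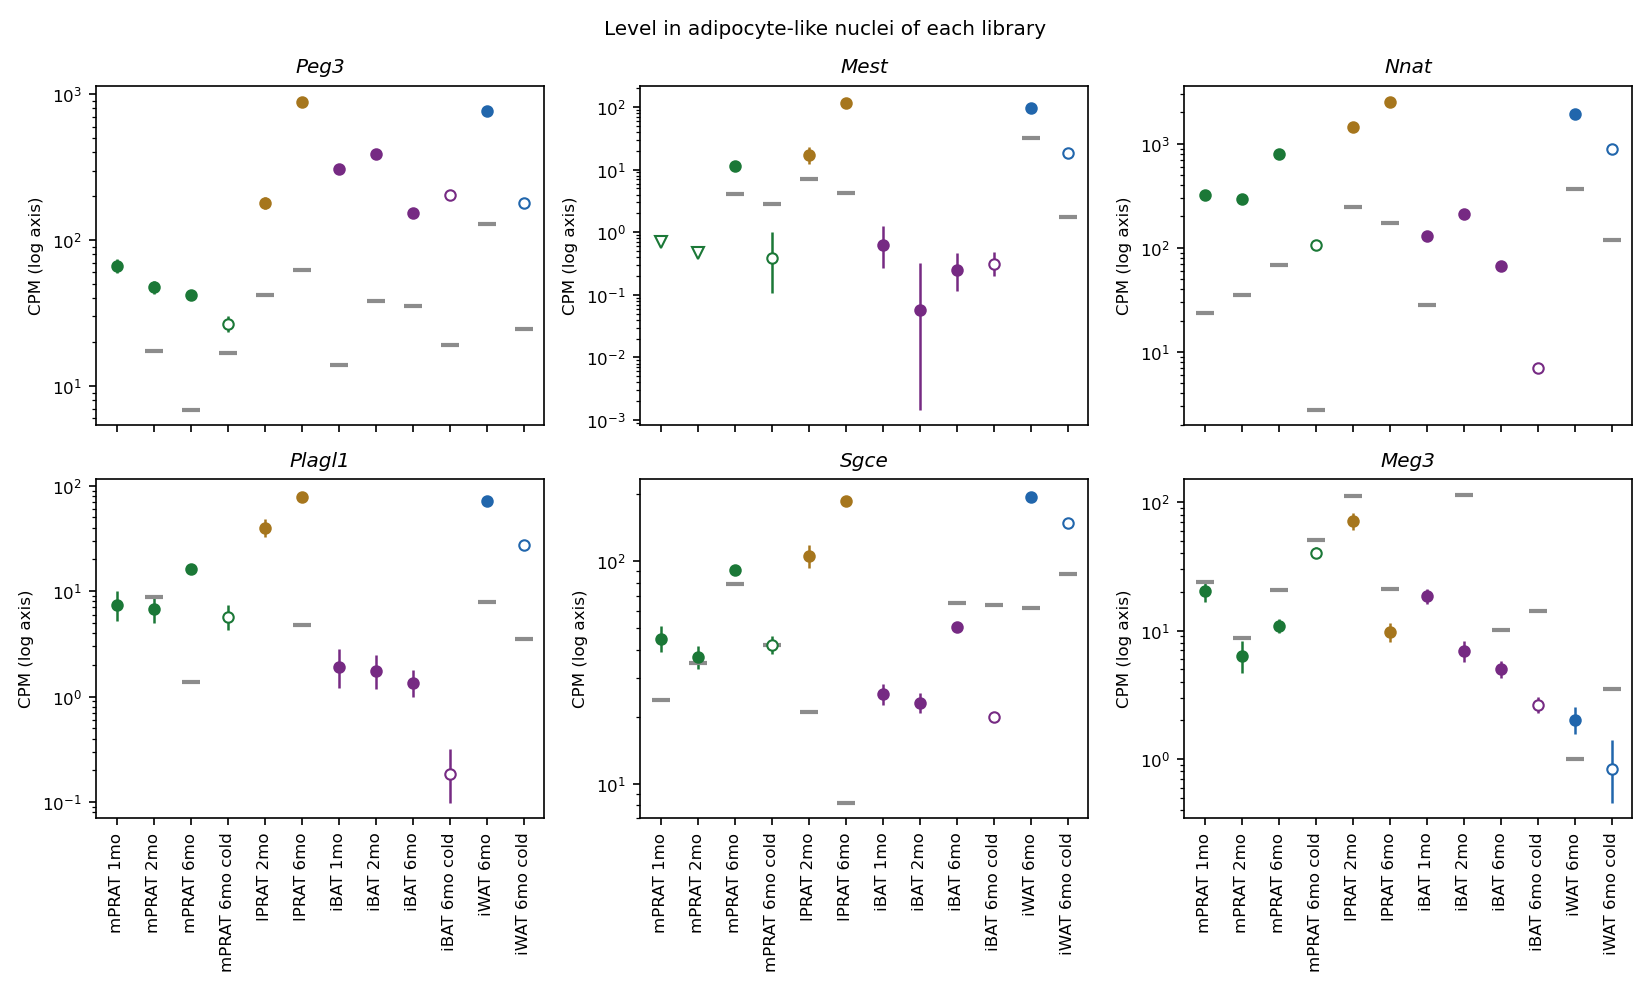
Level of 6 of the genes in adipocyte-like nuclei (y axes, CPM on a log scale) in each of the 12 libraries (x axis); filled points are room temperature, open points cold, vertical bars 95% Poisson intervals, open triangles the limit that a count of 0 allows, and grey dashes the macrophage-like level of the same library (left out where it is 0). Peg3 is lowest in the 4 mPRAT libraries (26.6 to 66.7 CPM), Nnat and Plagl1 are highest in lPRAT and iWAT, and Meg3 lies at or below the grey dash in 10 of 12 libraries. The Meg3 dash rests on 1 to 3 UMIs in mPRAT at 1 and 2 months, iBAT at 2 and 6 months and iWAT.

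Mest was almost absent from brown adipocytes and from young mPRAT, and reached its highest levels in lPRAT and iWAT at 6 months. In mPRAT adipocyte-like nuclei no Mest UMI was seen at 1 or 2 months, which allows up to 0.71 and 0.467 CPM. The level was 11.3 CPM at 6 months and 0.392 CPM in cold. The lPRAT level was 17.2 CPM at 2 months and 117 CPM at 6 months, and the iWAT level was 96.8 CPM at room temperature and 18.3 CPM in cold. In iBAT it lay between 0.0582 and 0.631 CPM in all 4 libraries. The macrophage-like levels were 4.14 CPM in mPRAT at 6 months, 4.24 CPM in lPRAT at 6 months and 31.8 CPM in iWAT at room temperature, and the adipocyte level was above each of them. The mPRAT background rests on 3 UMIs, and the interval of its ratio to adipocytes (0.928 to 13.4) includes no difference, while those of lPRAT (16.7 to 49.5) and iWAT (2.15 to 4.45) do not. Mest was uneven among adipocyte clusters. In cluster 6, whose leading genes include Tshr and Npr3, it stood at 142 CPM in iWAT at room temperature, 133 in lPRAT and 66.7 in mPRAT at 6 months, while cluster 3 had 27.6, 51.0 and 2.60 CPM in the same libraries. At 6 months in iBAT, cluster 6 had 12.1 CPM from 4 UMIs.

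Nnat was highest in lPRAT and iWAT, intermediate in mPRAT and lowest in iBAT at 6 months, the order of depots seen for Mest. Its mPRAT adipocyte-like level was 325 CPM at 1 month, 298 at 2 months, 797 at 6 months and 105 in cold. The lPRAT level was 1434 CPM at 2 months and 2529 at 6 months, and the iWAT level was 1940.1 CPM at room temperature and 898 in cold. In iBAT Nnat went from 129 CPM at 1 month and 212 at 2 months to 67.1 at 6 months and 6.99 in cold. It exceeded the macrophage-like level in 12 of 12 libraries. That background was itself high in white depots, at 364 CPM in iWAT at room temperature and 244 CPM in lPRAT at 2 months.

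Nuclei of adipocytes in which at least 1 Nnat UMI was seen were counted as well. After each nucleus was thinned to 1000 UMIs, their share was 9.32%, 10.2% and 24.8% in mPRAT at 1, 2 and 6 months and 3.58% in cold. It was 66.2% and 71.6% in lPRAT at 2 and 6 months, 62.1% in iWAT and 34.2% in cold iWAT, and between 0.684% and 5.57% in iBAT. Before thinning the shares were 12.5%, 12.8%, 46.2% and 7.82% in the mPRAT libraries in the same order. The thinned share in macrophage-like nuclei was 27.9% in iWAT at room temperature and 8.03% in mPRAT at 6 months. Nuclei under 1000 UMIs were left out, which removed 263 of the mPRAT nuclei at 1 month and left 878 lPRAT nuclei at 2 months.

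Nnat differed widely between clusters of adipocytes in iBAT and mPRAT, and less so in the white depots. Over clusters with at least 50 nuclei at 6 months and room temperature it ran from 7.52 to 3306 CPM in iBAT and from 39.6 to 1719 CPM in mPRAT, but from 2252 to 3646 CPM in lPRAT and from 734 to 1974 CPM in iWAT. At 6 months in iBAT it was 2202 CPM in cluster 3, 813 in cluster 5 and 3306 in cluster 6, against 9.47 in cluster 0, 12.03 in cluster 1 and 13.4 in cluster 2. Clusters 0, 1 and 2 are led by genes of brown fat such as Ppara, Cidea or Ucp1, and clusters 3, 5 and 6 by genes such as Car3, Acsl1 and Tshr. In mPRAT at 6 months the same 6 clusters had 1345, 436 and 1719 CPM against 53.8, 39.6 and 71.5 CPM. Clusters 3, 5 and 6 of iBAT thus held Nnat at levels not lower than those of mPRAT, although the depot mean was 11.9-fold higher in mPRAT (interval 11.4 to 12.4). Most adipocyte-like nuclei of that iBAT library lay in clusters 0 and 2.

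**Figure D3:**
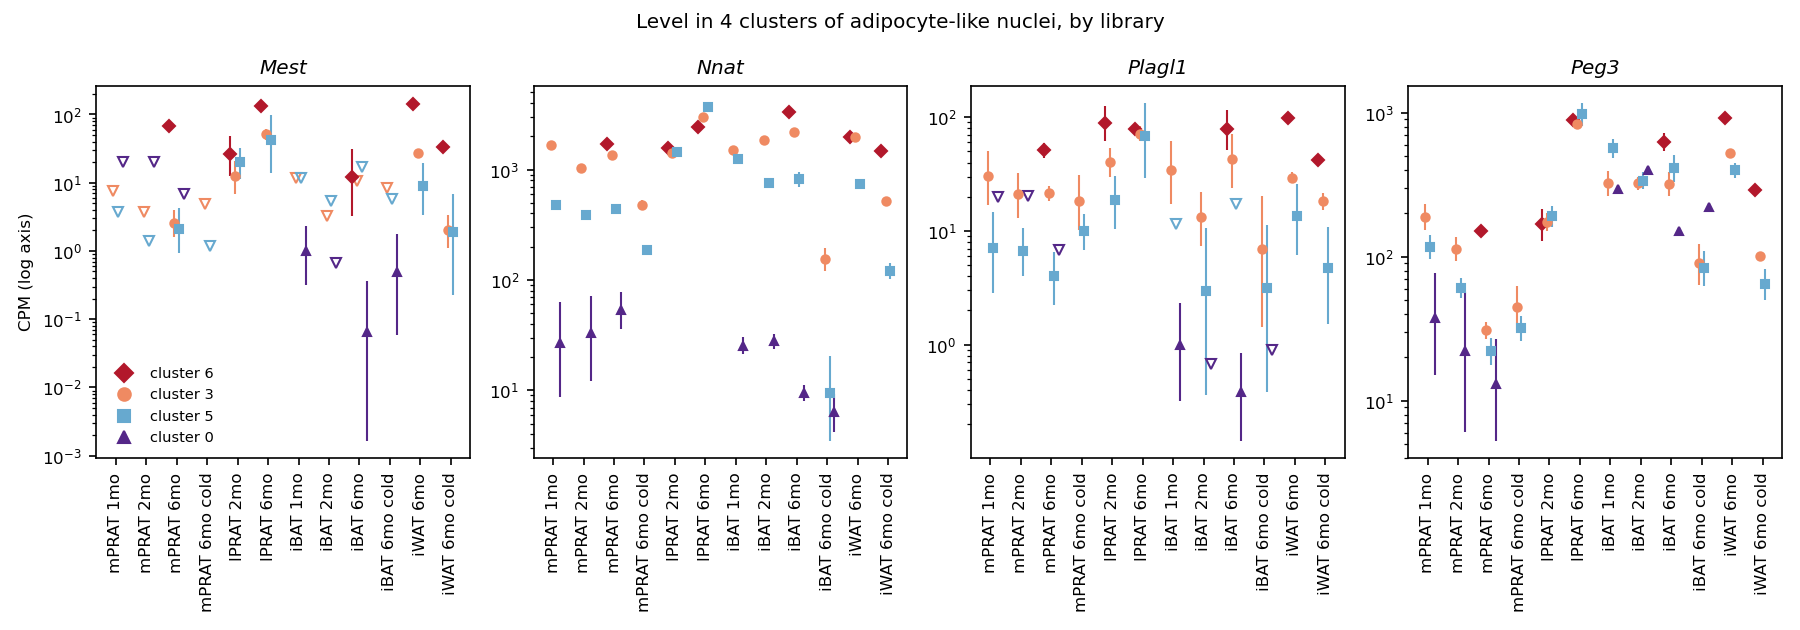
Level of Mest, Nnat, Plagl1 and Peg3 (y axes, CPM on a log scale) in 4 clusters of adipocyte-like nuclei, by library (x axis); points are clusters with at least 50 nuclei in that library, bars are 95% Poisson intervals and open triangles the limit that a count of 0 allows. Nnat in iBAT at 6 months stands at 3306 CPM in cluster 6 and 9.47 CPM in cluster 0, while Peg3 in mPRAT lies below the other depots in each cluster drawn for room temperature at 6 months.

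Plagl1 and Sgce were also highest in lPRAT and iWAT and lowest in iBAT at 6 months. Plagl1 stood at 7.31, 6.71 and 16.4 CPM in mPRAT adipocyte-like nuclei at 1, 2 and 6 months and at 5.69 CPM in cold. The lPRAT level was 40.0 CPM at 2 months and 77.8 at 6 months, the iWAT level 71.5 CPM and 27.2 in cold, and the iBAT levels 1.89, 1.746, 1.35 and 0.185 CPM. In cluster 6 Plagl1 reached 51.1 CPM in mPRAT, 79.2 in lPRAT, 78.5 in iBAT and 97.8 in iWAT at 6 months and room temperature. Sgce, which encodes ε-sarcoglycan, a membrane protein of the dystrophin-associated complex, lies at chr6:4674350-4747207 on the minus strand (ENSMUSG00000004631). It was 44.8, 37.0 and 90.9 CPM in mPRAT at 1, 2 and 6 months and 42.0 in cold, and 25.2, 23.0, 50.6 and 19.9 CPM in iBAT. It was 105 and 187 CPM in lPRAT and 195 and 149 CPM in iWAT. Macrophage-like nuclei held 78.6 CPM of Sgce in mPRAT and 65.2 CPM in iBAT at 6 months, close to or above the adipocyte levels. The other immune classes held less. B cell-, T or NK cell- and dendritic cell-like nuclei had 6.76, 4.38 and 6.42 CPM in that mPRAT library. In iBAT they had 11.9, 0 and 9.86 CPM, from 1, 0 and 1 UMIs. Whether macrophage-like Sgce is free RNA was not tested.

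Over the 12 libraries, log2(CPM + 10) of Plagl1 in adipocyte-like nuclei ran with that of Mest (Pearson r = 0.95), Sgce (0.95) and Nnat (0.90). The pairs of Mest with Sgce (0.90) and with Nnat (0.79) were also high. Peg3 was less alike, at 0.64 with Mest and 0.32 with Nnat, and Meg3 had values from -0.34 to 0.11 with the other 5. These are descriptions over 12 libraries that share depots, depths and cluster makeup, with no test. Among 8396 genes that reached 20 CPM in adipocytes of at least 1 library, the gene most like Peg3 was Zim1 (r = 0.85), an imprinted gene of the same cluster on chromosome 7, and Iqgap2, Asb3 and Gm36816 were also among the closest 5. For Mest the 5 closest were D130040H23Rik, Pkia, Sec24d, Crim1 and Zfyve28, for Nnat Slit3, Eepd1, Ccdc80, Ehd2 and Cav2, and for Plagl1 Boc, Apba1, Fam102b, Evc2 and Actn1. The closest to Sgce were Eps15, Nln, Lgals12, Mid2 and Atrnl1. Meg3 was closest to Rian (r = 0.95), a noncoding RNA of the same imprinted region, then Ppm1m, Snhg1, Rack1 and Tap1. With 1 CPM added in place of 10, the genes named for Peg3 and 4 of 5 for Nnat and Sgce were again among the closest 5, against 3 of 5 for Meg3 and 2 of 5 for Mest and Plagl1.

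Meg3 and Dlk1 belong to the same imprinted domain on chromosome 12, where Dlk1 (ENSMUSG00000040856, chr12:109452823-109463336) is a transmembrane protein related to Notch ligands and Meg3 (ENSMUSG00000021268, chr12:109541001-109571726) a long noncoding RNA, both on the plus strand. In ASPC-like nuclei Meg3 stood at 1865, 1179, 1499 and 1399 CPM in mPRAT at 1, 2 and 6 months and in cold. It was 1245 and 892 CPM in lPRAT, 2618, 1392, 1690.4 and 787 CPM in iBAT, and 300.2 and 209 CPM in iWAT. The iWAT progenitors were thus lowest, at 4.99-fold below mPRAT (interval 4.67 to 5.34) and 5.63-fold below iBAT (5.25 to 6.04) at 6 months. Adrenal cortex-like nuclei of mPRAT had 3622 CPM at 6 months and 4458 CPM in cold, and mural-like nuclei had 393 to 2726 CPM in the 11 libraries with more than 1 such nucleus. Adipocyte-like Meg3 was 0.836 to 70.8 CPM and did not exceed the macrophage-like level in 10 of 12 libraries. That level rests on 1 to 3 UMIs in mPRAT at 1 and 2 months, iBAT at 2 and 6 months and cold iWAT. In those libraries the order of the 2 classes is uncertain.

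Dlk1 was low in every class. Its highest level was 86.0 CPM in mural-like nuclei of mPRAT at 6 months (21 UMIs from 86 nuclei), followed by 59.3 CPM in mural-like nuclei of mPRAT at 1 month and 52.8 CPM in those of cold iBAT. ASPC-like nuclei had 0 to 8.45 CPM and adipocyte-like nuclei 0 to 1.15 CPM. No Dlk1 UMI was found in ASPC-like nuclei of lPRAT, iWAT or cold mPRAT.

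Igf2, a growth factor ligand (ENSMUSG00000048583, chr7:142650766-142666816, minus strand), and H19, a noncoding RNA that lies next to it (ENSMUSG00000000031, chr7:142575529-142578143, minus strand), were near the limit of detection. Igf2 was 0 to 0.577 CPM in adipocyte-like nuclei and 0 to 25.4 CPM in endothelial-like nuclei, apart from 73.7 CPM in the 30 endothelial-like nuclei of lPRAT at 2 months, which rests on 3 UMIs. Of the 26 H19 UMIs, 9 lay in 372 skeletal muscle-like nuclei of iBAT at 2 months (6.81 CPM), and 8 in adipocyte-like nuclei of the 4 iBAT libraries (0.0142 to 0.158 CPM). No H19 UMI was found in adipocyte-like nuclei of mPRAT, lPRAT or iWAT. Cdkn1c, an inhibitor of cyclin-dependent kinases (ENSMUSG00000037664, chr7:143458339-143461050, minus strand), was 0.123 to 0.769 CPM in adipocyte-like nuclei. In endothelial-like nuclei it was 40.1 to 92.6 CPM in the 4 iBAT libraries, 12.7 to 59.3 CPM in mPRAT and 5.53 to 14.7 CPM in iWAT. Igf2 and Cdkn1c overlap antisense genes of the matrix (Igf2os and Gm44732).

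Peg3 was not limited to adipocytes. In skeletal muscle-like nuclei of iBAT at 2 months it was 429 CPM (567 UMIs), in epithelial-like nuclei of the 4 mPRAT libraries 178 to 203 CPM, and in mural-like nuclei of mPRAT and iBAT 103 to 207 CPM. Mural-like Peg3 was thus above adipocyte-like Peg3 in mPRAT at 6 months, at 151 against 42.0 CPM, while in iBAT the 2 classes had 184 and 153 CPM. Epithelial markers were unevenly present in adipocyte-like nuclei of mPRAT: 9 of 9 were detected in each library, and their summed level was 41.7 CPM at 1 month, 93.4 at 2 months, 8.4 at 6 months and 209 in cold. The part of these RNAs in the low mPRAT level of Peg3 was not tested.

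Cold exposure was compared with room temperature at 6 months, and a gene was called when its ratio passed 2-fold with at least 20 UMIs over both libraries. In mPRAT adipocyte-like nuclei 6 of the 10 genes could be compared, and 4 were called lower and 1 higher, where 24.1% of all genes compared were called in either direction (10.8% higher and 13.4% lower). Mest was 28.9-fold lower (interval 11.2 to 107), Nnat 7.56-fold lower (7.11 to 8.05), Plagl1 2.87-fold lower (2.18 to 3.86) and Sgce 2.16-fold lower (1.95 to 2.41). Meg3 was 3.71-fold higher (3.17 to 4.34), at a level not above that of macrophage-like nuclei. Peg3 was 1.58-fold lower (1.38 to 1.81) and not called; as a mean over nuclei its ratio was 0.955. With the nuclei over the mitochondrial limit kept, the ratios were 0.0325 for Mest and 0.1246 for Nnat, close to those without them (0.0346 and 0.132). Mest and Nnat were selected on this contrast, so nothing is read from the count.

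In iBAT 7 genes could be compared and 4 were called lower, against 28.9% of all genes in either direction (10.4% higher and 18.5% lower). Nnat was 9.59-fold lower (8.70 to 10.6), Plagl1 7.30-fold lower (3.90 to 14.7) and Sgce 2.54-fold lower (2.37 to 2.73). Both Sgce levels were below the macrophage-like ones (65.2 CPM at room temperature and 63.3 in cold), so the ratio after subtraction (0.516) is that of limits of 3 counts. T or NK cell-like nuclei had 0 Sgce UMIs in both libraries, B cell-like nuclei 1 and 0, and dendritic cell-like nuclei 1 and 10. Cdkn1c was 2.10-fold lower with an interval that includes no change (0.883 to 5.03), from 12 and 13 UMIs. With 1 CPM added before the ratio, 2 of these 4 calls were left, because Plagl1 and Cdkn1c lie under 2 CPM. Of all genes called, 36.0% were higher, and 47.0% with the library scaling called TMM (trimmed mean of M values). Peg3 was 1.33-fold higher in cold (1.29 to 1.38), and Mest had 22 and 9 UMIs. In iWAT 6 of 7 genes were called lower, against 18.1% of all genes in either direction (5.07% higher and 13.019% lower). Mest was 5.28-fold lower (4.70 to 5.95), Peg3 4.29-fold (4.13 to 4.45), Plagl1 2.63-fold (2.38 to 2.91), Meg3 2.40-fold (1.34 to 4.61) and Nnat 2.16-fold (2.12 to 2.20), a ratio of 0.501 and no call with TMM scaling. Meg3 lost its call with 1 CPM added (ratio 0.611). Cdkn1c was 2.04-fold lower from 4 and 17 UMIs (0.665 to 8.33), and its direction reversed as a mean over nuclei (ratio 1.52). Both Cdkn1c levels were below the macrophage-like ones, which rest on 2 UMIs at room temperature and 1 in cold. The ratio after subtraction (2.08) is therefore that of limits of 3 counts and gives no direction. Sgce was 1.31-fold lower without a call. The counts in iBAT and iWAT include Mest or Nnat too and are a description.

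**Figure D4:**
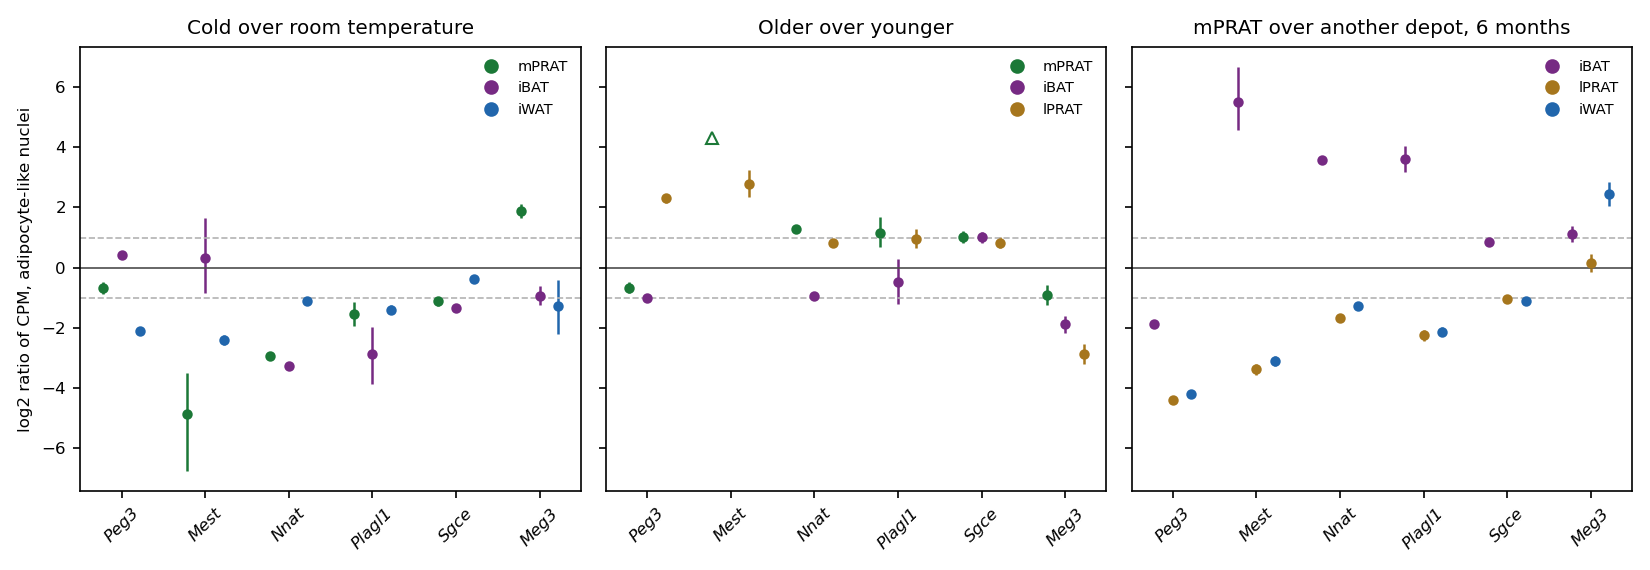
Log2 ratio of the level in adipocyte-like nuclei (y axis) for 6 genes (x axis), in cold over room temperature (left), older over younger (middle; 6 over 1 month in mPRAT and iBAT, 6 over 2 months in lPRAT) and mPRAT over another depot at 6 months (right); bars are 95% counting intervals, the triangle is a lower bound and the dashed lines mark 2-fold. Nnat and Plagl1 lie below the lower dashed line in all 3 cold comparisons, and Peg3 does so only in iWAT.

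Different clusters held most adipocyte-like nuclei at the 2 temperatures: clusters 3, 2 and 5 in mPRAT at room temperature and clusters 11 and 5 in cold, and clusters 0 and 2 in iBAT at room temperature and cluster 1 in cold. In iWAT clusters 3 and 6 held most at both temperatures. The same comparisons were therefore made inside single clusters with at least 50 nuclei in both libraries and at least 20 UMIs. Nnat was lower in cold in each cluster compared, in 4 of 4 in mPRAT (2.31- to 8.77-fold), 7 of 7 in iBAT and 4 of 4 in iWAT. In iBAT clusters 3 and 5 it was 14.3-fold and 86.0-fold lower, and in clusters 0 and 1 it was 1.48-fold and 2.13-fold lower. Peg3 in iWAT was lower in 4 of 4 clusters, by 3.18-fold in cluster 6 and 5.21-fold in cluster 3. In mPRAT it was higher in 3 of 3 clusters (1.45-fold in cluster 5, interval 1.07 to 1.96), opposite to the direction of all adipocyte-like nuclei together. Plagl1 likewise was 2.51-fold higher in cluster 5 of cold mPRAT (1.31 to 5.00) and 1.17-fold lower in cluster 3 (0.676 to 2.18), and Sgce was lower in 3 of 4 clusters without passing 2-fold in any. In iBAT Peg3 was higher in 9 of 11 clusters and lower in clusters 3 and 5 (3.58-fold and 4.92-fold).

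Inside the iWAT clusters, Mest was 4.26-fold lower in cluster 6 (3.74 to 4.87) and 13.7-fold lower in cluster 3 (8.20 to 24.8), and Plagl1 2.33-fold and 1.62-fold lower. In mPRAT the difference in Mest could not be followed inside its leading cluster, because cluster 6 had fewer than 50 nuclei in the cold library; in cluster 3 it had 20 UMIs at room temperature and 0 in cold. Sgce was lower in 11 of 11 clusters in iBAT and in 4 of 4 in iWAT. Summed levels of markers of other cells moved as well: epithelial markers in cold mPRAT as given above, and progenitor markers (7 of 7 detected) from 257 to 354 CPM in cold iWAT and from 104 to 22.9 CPM in cold iBAT adipocyte-like nuclei. Their part in these ratios was not tested.

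Nuclei of adipocytes were also divided by whether a UMI of Ucp1, the uncoupling protein of thermogenic fat, was present after thinning to 1000 UMIs. In mPRAT a Ucp1 UMI was seen in 9.49%, 17.7%, 14.02% and 42.7% of adipocyte-like nuclei at 1, 2 and 6 months and in cold, and in 1.23%, 2.09%, 0.446% and 5.09% of ASPC-like nuclei. In cold iWAT it was seen in 2.90% of adipocyte-like nuclei and in 0 of 559 ASPC-like nuclei, a share of up to 0.537% by a limit of 3 counts. These nuclei are named by the UMI seen and not as nuclei that express Ucp1. Nnat was lower in nuclei with a Ucp1 UMI in each library with at least 50 nuclei of both kinds, apart from cold iBAT, where the interval includes no change. In mPRAT it was 40.4 against 278 CPM at 1 month, 51.0 against 316 at 2 months, 73.2 against 799 at 6 months and 15.3 against 166 in cold. These are 6.88-fold, 6.20-fold, 10.9-fold and 10.8-fold differences. In iBAT the fold was 3.82, 5.64 and 6.89 at 1, 2 and 6 months, and 1.48 in cold with an interval that includes no change (0.867 to 2.47). In cold iWAT it was 9.46-fold lower in 78 nuclei with Ucp1 (4.59 to 23.6).

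For Peg3 the levels of the same 2 sets of nuclei were close in iBAT. There nuclei with and without Ucp1 had 313 and 313 CPM at 1 month, 419 and 406 at 2 months, 159 and 154 at 6 months and 216 and 209 in cold, and each interval of the ratio includes no change. The split is uncertain, because a nucleus can hold a Ucp1 UMI from free RNA or miss one at this depth. A Ucp1 UMI was seen in 27.1%, 36.3%, 29.9% and 74.4% of adipocyte-like nuclei of these 4 iBAT libraries, and in 6.25%, 5.50%, 4.73% and 13.8% of their ASPC-like nuclei. In macrophage-like nuclei it was seen in 5.33% at 6 months and 23.1% in cold. How wrongly placed nuclei bear on the comparison was not tested. In mPRAT the nuclei with Ucp1 had 13.5, 23.7, 8.37 and 12.97 CPM at 1, 2 and 6 months and in cold, against 61.6, 45.8, 26.9 and 36.9 CPM in those without. Among nuclei with Ucp1, mPRAT was therefore 23.3-fold below iBAT at 1 month (7.91 to 113), 17.7-fold at 2 months (10.3 to 33.4), 19.1-fold at 6 months (7.41 to 70.2) and 16.7-fold in cold (9.29 to 33.5). Among nuclei without Ucp1 it was 5.08-fold, 8.86-fold, 5.70-fold and 5.67-fold below. Peg3 in mPRAT nuclei with Ucp1 rests on 3 to 13 UMIs and is near the macrophage-like level of those libraries (0 to 17.5 CPM).

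**Figure D5:**
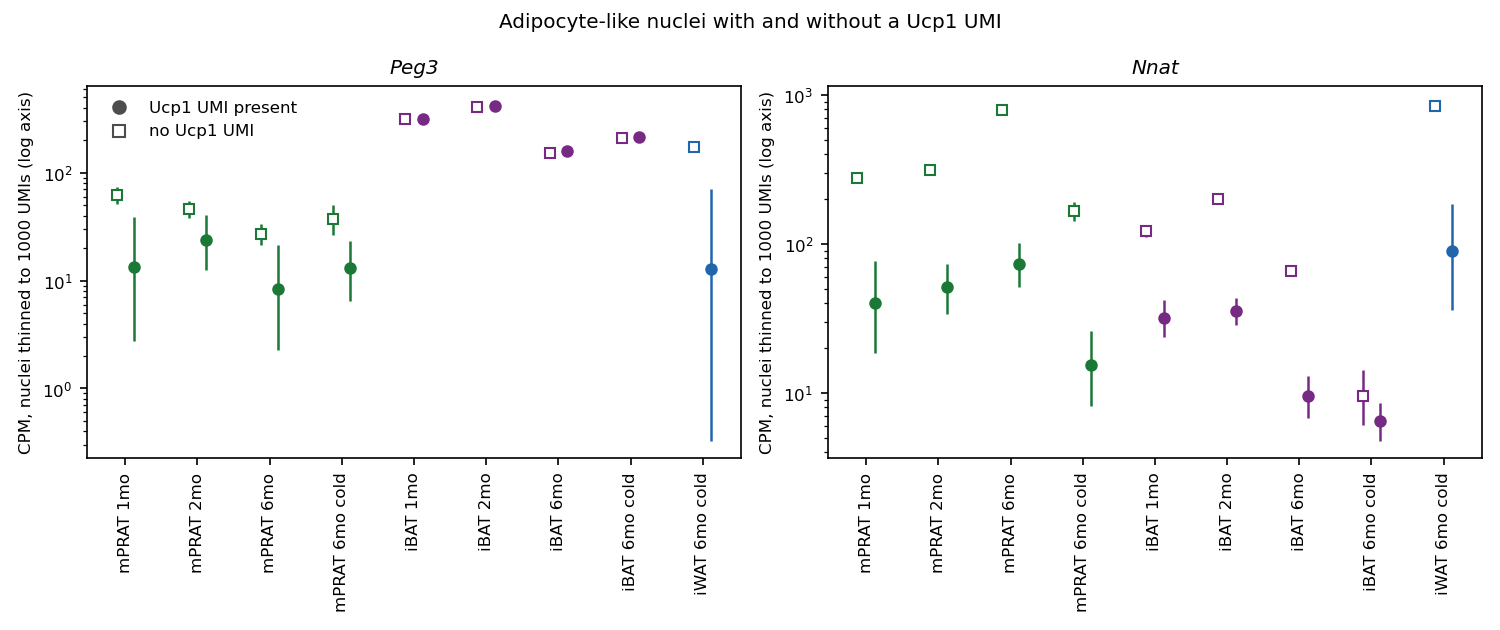
Level of Peg3 and Nnat (y axes, CPM on a log scale) in adipocyte-like nuclei thinned to 1000 UMIs, with a Ucp1 UMI (filled circles) and without (open squares), in each library with at least 50 nuclei of both kinds (x axis); bars are 95% Poisson intervals. The 2 symbols of Peg3 coincide in iBAT (313 and 313 CPM at 1 month) and stand apart in mPRAT, and Nnat is lower with Ucp1 in every library drawn.

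The genes did not follow age in the same way in every depot. In mPRAT adipocyte-like nuclei 4 of 6 genes were called higher at 6 than at 1 month, where 21.8% of all genes were called in either direction (8.08% higher and 13.7% lower). Mest was at least 19.7-fold higher, Nnat 2.45-fold (2.33 to 2.58), Plagl1 2.24-fold (1.60 to 3.21) and Sgce 2.03-fold (1.77 to 2.33). Peg3 was 1.59-fold lower and Meg3 1.88-fold lower, neither past 2-fold. By step, 4 of 6 genes were called higher from 2 to 6 months, among them Nnat (2.68-fold) and Plagl1 (2.44-fold). Of all genes, 17.6% were called in either direction. From 1 to 2 months 1 of 5 genes was called, Meg3 (3.22-fold lower), against 10.9% of all, and Peg3 was 1.40-fold lower. From 2 to 6 months Peg3 was 1.13-fold lower and Meg3 1.71-fold higher, neither called. Inside single mPRAT clusters, Nnat was higher at 6 months than at 1 in 2 of 4 and lower in the other 2, and Plagl1 was lower in 2 of 2 with intervals that include no change, opposite to all adipocyte-like nuclei pooled. Peg3 was over 2-fold lower in 3 of 3 (3.29- to 6.13-fold), and as a mean over nuclei its ratio passed 2-fold (0.428). Clusters 2, 5 and 15 held most of these nuclei at 1 month and clusters 3, 2 and 5 at 6 months. The Sgce level was not above macrophage-like nuclei by 2-fold at either age, and with that level subtracted its ratio was 0.584. The levels subtracted were 23.8 CPM (2 UMIs) at 1 month and 78.6 CPM at 6 months. B cell-, T or NK cell- and dendritic cell-like nuclei held 6.76, 4.38 and 6.42 CPM at 6 months, and whether macrophage-like Sgce is free RNA was not tested. With all genes scaled by TMM, the share of calls that were higher went from 37.1% to 51.4%, and the same 4 genes stayed past 2-fold.

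In iBAT 2 of 6 genes were called between 1 and 6 months, against 20.5% of all (9.13% higher and 11.4% lower): Sgce 2.01-fold higher (1.78 to 2.27) and Meg3 3.69-fold lower (3.03 to 4.51). Both levels were at or below those of macrophage-like nuclei at 6 months, where the macrophage-like Meg3 level rests on 2 UMIs. With that level subtracted Sgce at 6 months left no whole UMI and was set to 3 counts, so its ratio (0.00328) gives no direction. The other immune classes of that library held less Sgce than macrophage-like nuclei (65.2 CPM), at 11.9 CPM in B cell-like, 9.86 in dendritic cell-like and 0 in T or NK cell-like nuclei. Peg3 was 2.00-fold lower (1.92 to 2.08), just short of a call, lower in 14 of 14 clusters, and past 2-fold as a mean over nuclei (ratio 0.485). Nnat was 1.93-fold lower (1.81 to 2.05). By step, 1 of 5 genes was called from 1 to 2 months (Meg3, 2.66-fold lower) against 9.26% of all, with Peg3 1.27-fold and Nnat 1.64-fold higher. From 2 to 6 months 3 of 5 were called against 18.3% of all: Peg3 2.54-fold lower (2.45 to 2.64), Nnat 3.16-fold lower (3.00 to 3.33) and Sgce 2.20-fold higher. In lPRAT from 2 to 6 months, 2 genes were called higher and 1 lower of 6, against 27.6% of all (14.7% higher and 12.9% lower). Mest was 6.83-fold higher (5.05 to 9.46), Peg3 4.92-fold higher (4.47 to 5.42) and Meg3 7.30-fold lower (5.84 to 9.14). Plagl1, Sgce and Nnat were 1.95-fold, 1.78-fold and 1.76-fold higher, and with TMM scaling all 3 passed 2-fold, so that 6 of 6 were called; the share of all calls that were higher then went from 53.3% to 64.9%. Clusters 5 and 3 held most lPRAT adipocyte-like nuclei at 2 months and clusters 6 and 3 at 6 months, and Peg3 was higher at 6 months in 4 of 4 clusters (4.83- to 6.18-fold). The lPRAT library at 2 months was the shallowest, and macrophage markers summed to 88.7 CPM in its adipocyte-like nuclei against 13.01 CPM at 6 months.

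The mPRAT library at 6 months and room temperature was compared with each other depot of that age; Peg3 was selected on this contrast. Between mPRAT and iBAT 4 genes were called higher and 1 lower in mPRAT of 6, against 21.960% of all genes (13.2% higher and 8.74% lower). Besides Peg3 and Nnat, given above, Mest was 45.7-fold higher in mPRAT (23.7 to 101) and Plagl1 12.1-fold higher (8.98 to 16.6). Meg3 was 2.17-fold higher (1.79 to 2.64), with no call after 1 CPM was added (1.98). It lay below the macrophage-like level (which rests on 2 UMIs in iBAT) in both libraries, so its ratio after subtraction (1.49) is that of limits of 3 counts. Clusters 3, 2 and 5 held most mPRAT adipocyte-like nuclei, clusters 0 and 2 those of iBAT, and clusters 6 and 3 those of lPRAT and iWAT. Of 7 clusters compared, Nnat was higher in mPRAT in 4, all past 2-fold (3.29- to 5.69-fold), and lower in 3, none past 2-fold (clusters 3, 5 and 6, by 1.64- to 1.92-fold). Plagl1 was 2.00-fold lower in cluster 3 (1.09 to 3.39) and 1.54-fold lower in cluster 6 (0.978 to 2.32). Below lPRAT, 5 of 6 genes were called in mPRAT, against 23.1% of all (11.6% higher and 11.5% lower): Mest 10.3-fold (9.11 to 11.8), Plagl1 4.75-fold (4.24 to 5.34), Nnat 3.17-fold (3.12 to 3.23) and Sgce 2.06-fold (1.94 to 2.17), with Peg3. Against iWAT 6 of 7 were lower and 1 higher, against 22.4% of all (12.6% higher and 9.77% lower). Mest was 8.53-fold lower (7.54 to 9.68), Plagl1 4.37-fold (3.93 to 4.87), Nnat 2.43-fold (2.40 to 2.47) and Sgce 2.14-fold (2.04 to 2.25). Cdkn1c, at 3 and 17 UMIs, was 3.95-fold lower (1.14 to 21.03), and Meg3 5.41-fold higher (4.14 to 7.15), both at levels under those of macrophage-like nuclei in mPRAT. The macrophage-like level in mPRAT rests on 1 UMI for Cdkn1c and 15 for Meg3. With that level subtracted both mPRAT levels, and Cdkn1c in iWAT, left no whole UMI and were set to 3 counts. The ratios that result (1.435 for Cdkn1c and 0.122 for Meg3) therefore give no direction. Inside clusters 3, 5 and 6, Peg3 was past 2-fold lower in mPRAT in 3 of 3 clusters against lPRAT and in 3 of 3 against iWAT. Nnat and Plagl1 were past 2-fold in 2 of 3 clusters each against lPRAT, and in 0 of 3 and 1 of 3 against iWAT, where Nnat was 1.14- to 1.68-fold lower. Sgce was past 2-fold in 0 of 3 in both comparisons, and Mest in 1 of 2 against lPRAT and 2 of 2 against iWAT. These 3 comparisons share the mPRAT library.

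The depots were also compared at the other ages and in cold. Peg3 was selected on its level by depot in these libraries, so the counts of these comparisons, which include it, are a description. At 2 months 6 of 6 genes were called lower in mPRAT than in lPRAT, against 29.8% of all genes in either direction. They were Peg3 (3.75-fold, interval 3.27 to 4.32), Mest (at least 45.3-fold, from 0 and 43 UMIs), Nnat (4.82-fold), Plagl1 (5.96-fold), Meg3 (11.2-fold) and Sgce (2.84-fold). Against iBAT, 3 of 5 genes were called at 1 month (18.5% of all) and 2 of 5 at 2 months (17.7% of all), with Peg3 lower and Plagl1 3.86-fold and 3.84-fold higher in mPRAT. Nnat was 2.51-fold higher in mPRAT than in iBAT at 1 month and 1.40-fold higher at 2 months, against 11.9-fold at 6 months.

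In cold, 4 genes were called higher and 1 lower of 6 in mPRAT against iBAT, where 20.9% of all genes were called. Nnat was 15.1-fold higher (13.5 to 16.8), Plagl1 30.7-fold (16.6 to 61.1), Meg3 15.3-fold and Sgce 2.11-fold. Against cold iWAT 5 of 6 were called lower and 1 higher, with 34.6% of all genes called. Mest was 46.7-fold lower (18.1 to 173), Nnat 8.52-fold, Peg3 6.71-fold, Plagl1 4.77-fold and Sgce 3.54-fold, while Meg3 was 48.1-fold higher (28.4 to 88.8). That Meg3 ratio rests on levels below those of macrophage-like nuclei in both libraries. They were 40.2 against 50.2 CPM in cold mPRAT and 0.836 (14 UMIs) against 3.52 CPM (2 UMIs) in cold iWAT.

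At 6 months and room temperature, 1 of 7 genes was called between the white depots lPRAT and iWAT, against 19.3% of all genes. Peg3 was 1.15-fold, Mest 1.21-fold, Nnat 1.30-fold and Plagl1 1.09-fold higher in lPRAT, and Sgce 1.04-fold lower (0.998 to 1.09). The called gene was Meg3 (4.83-fold higher). Between iWAT and iBAT, 5 genes were called higher and 1 lower in iWAT, against 38.2% of all. There Mest was 390-fold higher (205 to 853), Plagl1 52.9-fold, Nnat 28.9-fold, Peg3 4.98-fold and Sgce 3.85-fold.

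In ASPC-like nuclei (276 to 1184 per library) Peg3 was again low in mPRAT at 6 months. Peg3 was 94.0, 52.6 and 23.3 CPM in mPRAT at 1, 2 and 6 months and 49.3 in cold. It was 63.0 and 176 CPM in lPRAT, 82.4, 113, 41.7 and 27.6 CPM in iBAT, and 175 and 24.2 CPM in iWAT. In cold it was 7.21-fold lower in iWAT (5.20 to 10.3), where 4 of 6 genes were called lower. Of all genes there, 11.1% were called in either direction. In mPRAT Peg3 was 2.11-fold higher in cold (1.31 to 3.40), where 4 of 7 were called against 12.3%. The mPRAT call was lost with doublets kept (1.977), with a marker gate (1.38) and with the macrophage-like level subtracted (1.98). Nnat in cold mPRAT and Mest in cold iWAT, both called lower, left no whole UMI in either library after that subtraction. Their ratios (2.48 and 2.77) are those of limits of 3 counts and give no direction. In iBAT, where 4 of 6 were called against 14.9%, Peg3 was 1.51-fold lower without a call and Meg3 was 2.15-fold lower (2.00 to 2.30), with no call when doublets were kept (ratio 0.540) or as a mean over nuclei (0.503). Macrophage-like Peg3 in iWAT was 128 CPM at room temperature and 24.6 CPM in cold, so it was lower in cold too, and the cold progenitor level of 24.2 CPM was not above it. At 6 months mPRAT progenitors had 7.53-fold less Peg3 than lPRAT (5.39 to 10.8) and 7.48-fold less than iWAT (5.46 to 10.5), in comparisons where 3 of 6 genes were called against 11.4% and 18.7% of all. Macrophage-like Peg3 differed between these depots in the same direction, at 6.90 CPM in mPRAT, 62.0 in lPRAT and 128 in iWAT. With it subtracted the ratios of mPRAT to lPRAT and to iWAT were 0.144 and 0.356, both past 2-fold. In iWAT the other immune classes held more Peg3 than that, at 150 CPM in B cell-like, 145 in T or NK cell-like and 263 in dendritic cell-like nuclei. In lPRAT they held 93.8, 37.7 (1 UMI) and 251 CPM. These levels were not subtracted, and the part of free RNA in the ratios was not tested. Mest, called higher in mPRAT than in lPRAT, reversed with doublets kept (0.804). Between mPRAT and iBAT none of 7 genes was called, against 14.960% of all.

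With age, Peg3 in ASPC-like nuclei was 4.03-fold lower at 6 than at 1 month in mPRAT (2.52 to 6.42), the single call of 7 against 17.8% of all. It was 2.79-fold higher at 6 than at 2 months in lPRAT (1.91 to 4.203), the single call of 5 against 20.002%, which was lost as a mean over nuclei (1.997). None of 5 was called in iBAT between 1 and 6 months, against 14.7%. From 2 to 6 months Peg3 was 2.25-fold lower in mPRAT (1.35 to 3.72), where Mest was the other of 2 calls among 6 genes (9.72-fold higher, from 31 and 1 UMIs) against 13.963% of all. In iBAT it was 2.71-fold lower (1.88 to 3.94), the single call of 5 against 11.7%. Nnat in ASPC-like nuclei was 2.82 to 426 CPM and was between 0.842 and 1.32 times the macrophage-like level in the mPRAT, lPRAT and iWAT libraries other than mPRAT at 1 month (61.8 against 23.8 CPM, the latter from 2 UMIs). Mest was 1.31 to 17.6 CPM and Plagl1 9.56 to 54.4 CPM. Sgce was 126 to 224 CPM and within 1.34-fold between the libraries of each cold, age or 6-month depot comparison named here. Between ASPC clusters 4 and 18, Peg3 was higher in cluster 4 in 7 of 11 libraries and Meg3 in 5 of 11.

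Other imprinted genes gave a background to the 10. Of 37 listed, 26 could be compared in cold mPRAT adipocyte-like nuclei, with 1 called higher and 4 lower and a median log2 ratio of 0.00, where 10.8% of all genes were called higher and 13.4% lower. Rian was 4.01-fold higher there, beside Meg3, and Blcap, the gene in which Nnat lies, was 3.46-fold lower. Airn, the antisense RNA of Igf2r, was 2.48-fold lower. In cold iBAT 10 of 27 were lower and 1 higher, with Airn 4.31-fold and Peg10 4.12-fold lower, and in cold iWAT 5 of 26 were lower and 1 higher. All genes gave 18.5% lower and 10.4% higher in cold iBAT, and 13.019% and 5.07% in cold iWAT. Zim1, next to Peg3, was 6.29-fold lower in cold iWAT (5.34 to 7.45), where Peg3 was 4.29-fold lower.

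Zim1 had values of the same direction as Peg3 between depots. It was 4.48-fold lower in mPRAT than in iBAT at 6 months (3.38 to 6.05), 9.15-fold lower than in lPRAT (6.88 to 12.4) and 25.4-fold lower than in iWAT (19.5 to 33.8). Usp29, another gene of that cluster, was 6.59-fold and 3.72-fold lower in mPRAT than in lPRAT and iWAT. With age Zim1 was 4.26-fold lower in mPRAT and 2.77-fold higher in lPRAT. Grb10, an imprinted adaptor of the insulin receptor, was 8.86-fold higher in mPRAT than in iBAT and 4.93-fold lower than in lPRAT. Of the other imprinted genes, 8 of 27 were called between mPRAT and iBAT, 8 of 26 between mPRAT and lPRAT and 8 of 26 between mPRAT and iWAT, where 21.960%, 23.1% and 22.4% of all genes were called.

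The 6 genes reported beside Mest for their variation with fat mass (Sfrp5, Bmp3, Npr3, Sncg, Lep and Cav1) were followed as a group. Sncg and Lep, γ-synuclein and leptin, were 31.8-fold and 5.25-fold lower in cold mPRAT, where 4 of 6 were lower against 13.4% of all genes. In cold iWAT 5 of 6 were lower, with Sfrp5 9.75-fold, Bmp3 2.59-fold and Lep 2.26-fold, and in cold iBAT 3 of 5 were lower and Npr3, the natriuretic peptide clearance receptor, was 3.65-fold higher. All genes gave 13.019% lower in cold iWAT and 18.5% lower in cold iBAT. From 1 to 6 months in mPRAT 6 of 6 were higher against 8.08% of all genes, led by Sncg (12.99-fold), Sfrp5 (7.48-fold) and Npr3 (4.08-fold). In all, 5 of 6 were higher in mPRAT than in iBAT, with Bmp3 at 26.2-fold, and 4 of 6 were lower than in lPRAT and than in iWAT. The shares of all genes were 13.2% higher against iBAT and 11.5% and 9.77% lower against lPRAT and iWAT. The median log2 ratio of the group was -1.89 in cold mPRAT and 1.71 with age in mPRAT, beside -0.05 and -0.03 for all genes.

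Partners of single members gave smaller groups. Of 14 genes of the IGF axis, 14 could be compared in cold mPRAT; Igfbp2 was 18.6-fold higher and Igfbp4 2.19-fold lower. In mPRAT over iBAT at 6 months 5 of 14 were higher, among them Igf1 (13.2-fold, 348 against 26.4 CPM) and Igfbp4 (12.5-fold), where 13.2% of all genes were higher. Igf1r, the receptor of IGF ligands, was 2.81-fold lower at 6 than at 1 month in mPRAT. Of 11 Notch genes, which Dlk1 resembles in its extracellular part, 5 of 9 were higher in cold mPRAT, led by Notch3 (4.53-fold). In cold iBAT 3 of 9 were lower, against 10.8% higher and 18.5% lower of all genes in these comparisons. Notch3 is also among the markers used here to name mural-like nuclei. The part of RNA from other cells in its ratio was not tested. Among partners of Sgce in the sarcoglycan complex, Sspn was 2.55-fold lower in cold mPRAT and 2.65-fold lower in cold iBAT, and Sgcd was 2.93-fold higher with age in mPRAT. Cdkn1a, of the same inhibitor family as Cdkn1c, was 2.43-fold and 3.15-fold higher in cold mPRAT and cold iBAT and 3.63-fold and 6.38-fold lower at 6 than at 1 month in mPRAT and iBAT.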

How the data were processed

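The deposited values are whole-number UMI counts per gene and barcode in 12 libraries; per the labels' protocols they come from sorted nuclei and a 10x Genomics 3′ kit, and per the submitters' processing notes from Cell Ranger 7.0.0 and mm10. Filters on barcodes before deposit are not given in the sources used here. From these counts, nuclei with at least 500 UMIs, 300 genes and at most 10% mitochondrial UMIs were kept (96608 of 119035). Simulated doublets were scored, and 0.8% per 1000 nuclei were removed. Nuclei were clustered on 2000 variable genes and 30 components with 15 neighbours (Leiden, resolution 1; Python 3.11.15, leidenalg 0.10.2, igraph 0.11.9), leaving out the listed genes, and clusters were named from marker genes.

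UMIs were summed per class and library and given as CPM with exact Poisson intervals. Ratios have exact conditional binomial intervals and shares exact Clopper-Pearson intervals (95%). A count of 0 was set to 3 counts per library for a bound. The same was done where subtraction of the macrophage-like level left no whole UMI. PCR duplicates are removed by UMIs, and intervals cover counting error only. Each group is 1 library, so no test between groups was made, and past 2-fold with at least 20 counts is the call. The intervals and calls were tested on simulated counts drawn from the same Poisson model. That simulation held no variation between nuclei, animals or libraries and no free RNA, so it cannot speak to those errors. Alternatives were TMM factors (edgeR 4.0.16), doublets kept, no mitochondrial limit, a marker gate, means over nuclei, 1 CPM added, a minimum of 10 counts, subtraction of the macrophage-like level, and other thinning.

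All 10 genes are named; of each other list up to 3 genes per direction with the largest ratio past 2-fold, and for likeness the 5 genes of highest correlation, of which 1 is not reported here. The members and lists were chosen with earlier results of these data known. Gene identifiers were matched to GENCODE M21 (32158 of 32285).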

Additional observations from a re-analysis of the deposited data

Results flagged for a closer look

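In all, 8 results had opposite directions, both past 2-fold, in different depots under the same contrast. With 1 library per group the differences were not tested, and the value given is the log2 difference of the ratios. From 2 to 6 months, Peg3 in adipocyte-like nuclei was 2.54-fold lower in iBAT and 4.92-fold higher in lPRAT (-3.64). Over the same ages Nnat in adipocyte-like nuclei was 2.68-fold higher in mPRAT and 3.16-fold lower in iBAT (3.08). In cold, adipocyte-like Meg3 was 3.71-fold higher in mPRAT and 2.40-fold lower in iWAT (3.15), at levels not above those of macrophage-like nuclei except in iWAT at room temperature. Macrophage-like Meg3 in iWAT rests on 1 UMI at room temperature and 2 in cold. The iWAT ratio did not pass 2-fold with 1 CPM added (0.611), and inside iWAT clusters Meg3 was lower in cold in 1 and higher in 1.

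The other 5 were in ASPC-like nuclei. In cold, Peg3 was 2.11-fold higher in mPRAT and 7.21-fold lower in iWAT (3.93), and the mPRAT ratio did not pass 2-fold with doublets kept, a marker gate or subtraction of the macrophage-like level (1.38 to 1.98). In iWAT macrophage-like Peg3 was also lower in cold, at 128 and 24.6 CPM, and the progenitor level in cold (24.2 CPM) was not above it. From 2 to 6 months Peg3 was 2.25-fold lower in mPRAT and 2.71-fold lower in iBAT, but 2.79-fold higher in lPRAT (-2.65 and -2.92), where the ratio as a mean over nuclei was 1.997 and not past 2-fold. In cold, Nnat was 20.6-fold lower in mPRAT, from 102 to 2 UMIs, and 2.45-fold higher in iBAT (-5.66). With the macrophage-like level subtracted both mPRAT levels left no whole UMI and were set to 3 counts, so that ratio (2.48) gives no direction. The iBAT ratio was 1.73 as a mean over nuclei, 1.94 with the gate and 1.96 with doublets kept. Nnat was 3.08-fold lower in cold iWAT, against the same iBAT ratio (2.92). Macrophage-like Nnat in these libraries was 69.0 and 2.79 CPM in mPRAT at room temperature and in cold, 0 in both iBAT libraries, and 364 and 118 CPM in iWAT.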

How the results depend on the processing

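No paired analysis was possible because each group has 1 library, and for the same reason no replicate could be left out. Over the alternatives, 817 of 893 ratios of single genes kept their side of 2-fold and 76 did not, of which 26 came with subtraction of the macrophage-like level and 14 with means over nuclei. Where a count of called genes moved, the cause was not tested. In adipocyte-like nuclei, cold iBAT went from 4 to 2 with 1 CPM added and after subtraction of the macrophage-like level. The iBAT count from 1 to 6 months went from 2 to 1 with 1 CPM added and to 4 with that subtraction, and the lPRAT count from 3 to 6 with TMM and 5 with means over nuclei. In ASPC-like nuclei, cold iBAT went from 4 to 2 with doublets kept or with the marker gate and to 1 with means. From 1 to 6 months mPRAT went from 1 to 2 with doublets kept or with subtraction, and iBAT from 0 to 1 without the mitochondrial limit, with at least 10 counts or with subtraction. The lPRAT count went from 1 to 2 with doublets kept or subtraction and to 0 with means. Between depots, mPRAT over iBAT went from 0 to 2 with doublets kept, means or subtraction, mPRAT over lPRAT from 3 to 5 with at least 10 counts, and mPRAT over iWAT from 3 to 5 with the gate, at least 10 counts or subtraction.

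Ratios that reversed in adipocyte-like nuclei were Cdkn1c in cold iWAT with means (1.52) and Sgce with age in mPRAT with subtraction (0.584). For Sgce the level subtracted at 6 months (78.6 CPM) was above the 4.38 to 6.76 CPM of B cell-, T or NK cell- and dendritic cell-like nuclei. In ASPC-like nuclei Mest in mPRAT over lPRAT reversed with doublets kept (0.804). Other ratios that changed side under subtraction held a level that left no whole UMI and was set to 3 counts, so they give no direction. They were Cdkn1c in cold iWAT (2.08), Sgce with age in iBAT (0.00328), and Meg3 (0.122) and Cdkn1c (1.435) in mPRAT over iWAT. In ASPC-like nuclei they were Nnat in cold mPRAT (2.48) and Mest in cold iWAT (2.77). TMM shifted the median log2 ratio of all genes by -0.13 to 0.21, and the subtraction by -2.76 to 1.52. Of 120 shares of nuclei, 67 moved beyond their interval without thinning and 63 with thinning to 500 UMIs, which depth sets in part. Depth limits Dlk1, Igf2, H19 and Cdkn1c, each under 2 CPM in adipocyte-like nuclei.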
